A study of Mus musculus with 6 samples.

Results

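The collagen alpha chain genes were examined in bone marrow-derived mesenchymal stromal cells (MSCs) of the mouse. Members were all rows of the deposited count table whose symbol is Col, a type number, the letter a and a chain number, which gave 44 of 23420 genes. They were grouped by the assembly that their chains form: 11 fibrillar, 6 basement membrane, 9 FACIT (fibril-associated collagens with interrupted triple helices), 6 beaded filament, 3 short chain network, 2 multiplexin, 4 transmembrane and 3 anchoring fibril or other chains. The libraries were 3 labelled Ctl MSC and 3 labelled MSC-TPr. Both were grown from flushed femurs of female C57BL/6 mice aged 6 to 8 weeks and transduced at passage 5 with the AP2 retrovirus, which encodes eGFP. In MSC-TPr the virus also carried the thymoproteasome (TPr) subunits β1i, β2i and β5t, and in Ctl MSC it was empty otherwise. The proteasome degrades cytosolic proteins, and the thymoproteasome is the form found in thymic cortical epithelium. The study asked what this complex does to antigen handling by MSCs, and its RNA-seq compared MSC-TPr with Ctl MSC. Nothing in the labels says whether libraries of a label came from separate cultures or mice, so p-values measure the spread between these libraries, which may be technical.

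Collagens are extracellular matrix proteins whose alpha chains wind into a rod-like helix in the endoplasmic reticulum before secretion. Fibrillar types such as I, III and V build the tensile fibrils of connective tissue, type IV forms the sheet of basement membranes, FACIT chains coat fibrils, and type VI makes beaded filaments around cells. Stromal cells of the marrow, and the osteoblasts that arise from them, are known as producers of type I collagen, the main protein of bone.

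Each library held between 16158756 and 22158887 counts on genes, so 3 counts equal 0.139 to 0.181 CPM (counts scaled to a common library size by the TMM method). Of the transduced genes, Psmb9 (β1i) stood at 3.38, 0.801 and 0.827 CPM in Ctl MSC libraries 1, 2 and 3, against 0.554, 1.24 and 1.21 CPM in MSC-TPr libraries 1, 2 and 3. Psmb10 (β2i) stood at 27.8, 8.81 and 8.38 CPM in Ctl MSC libraries 1, 2 and 3. In MSC-TPr libraries 1, 2 and 3 it stood at 8.97, 17.3 and 15.2 CPM. Both Psmb9 and Psmb10 were higher in Ctl MSC 1, MSC-TPr 2 and MSC-TPr 3 than in every other library. Psmb11 (β5t) had 1 to 6 counts in each library. None of the 3 separated the labels, so names such as MSC-TPr 1 mean the library labelled so. Whether the labels of the 2 libraries numbered 1 were exchanged was not tested, no library was regrouped, and every direction over 6 libraries is that of the labels. On the leading principal component, which held 58.5% of the variance, Ctl MSC 1 lay at -40.9 with MSC-TPr 2 and 3 (-50.3 and -49.4), and MSC-TPr 1 lay at 40.5 with Ctl MSC 2 and 3 (50.8 and 49.2). The summed level of 20 cell division genes followed the same split, with 2300, 246 and 241 CPM in Ctl MSC libraries 1, 2 and 3, against 250.3, 2119 and 2250 CPM in MSC-TPr libraries 1, 2 and 3. Results are therefore given over all 6 libraries and again without both libraries numbered 1. That omission was chosen with results of these same data known. Calls and p-values without those libraries therefore describe the libraries kept and are not an independent test of the labels. The part of cell division in any collagen result was not tested. Of 10 MSC markers, Cd44 lay between 142 and 536 CPM and Ly6a between 138 and 630.2 CPM, while Thy1 had at most 1 count and Lepr at most 2.13 CPM. The 8 haematopoietic markers used summed to between 1.90 and 14.2 CPM with Cd3e and Adgre1 at 0 counts, and the 5 epithelial markers to at most 1.23 CPM.

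Collagen chains took 1.38%, 0.583% and 0.571% of all counts in Ctl MSC libraries 1, 2 and 3, against 0.411%, 1.25% and 2.56% in MSC-TPr libraries 1, 2 and 3. The lowest and the highest share both belonged to libraries labelled MSC-TPr, and Ctl MSC 1 lay above MSC-TPr 2, so the labels overlapped. The mean was 0.846% ± 0.466 (SD, n = 3) in Ctl MSC and 1.40% ± 1.08 (SD, n = 3) in MSC-TPr. The 10 most abundant chains made up between 89.3% and 93.7% of the summed collagen CPM of a library. In bulk RNA, fewer cells making collagen and less collagen RNA per cell cannot be told apart.

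**Figure D1:**
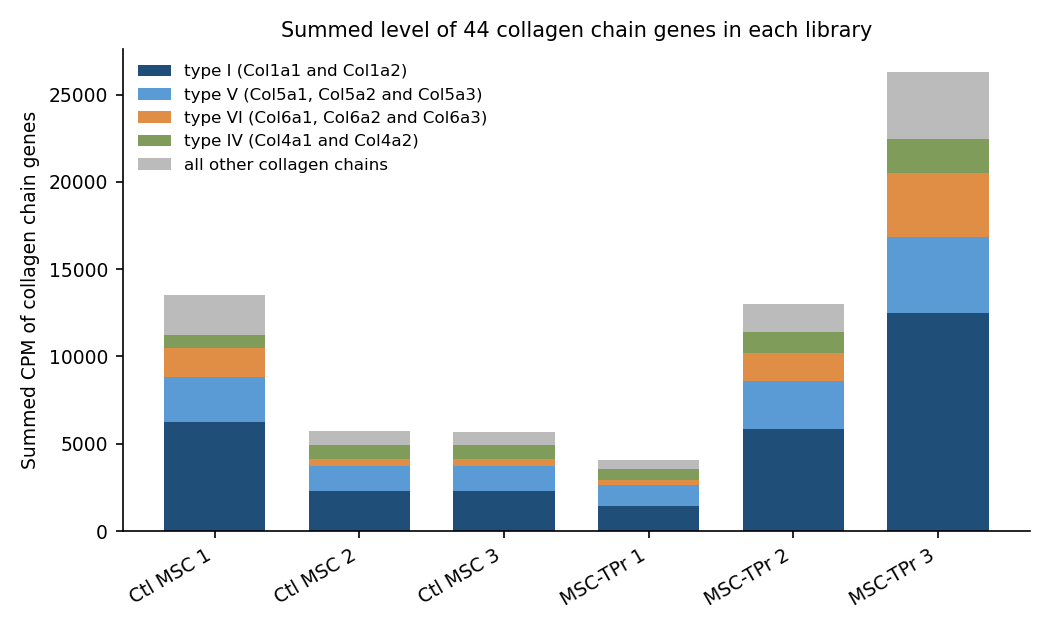
Summed CPM of the 44 collagen chain genes (y axis) in each of the 6 libraries (x axis), stacked by collagen type, with 1 bar per library and no error. The bars run from 4064 CPM in MSC-TPr 1 to 26285 CPM in MSC-TPr 3, and Ctl MSC 1 at 13509 CPM stands beside MSC-TPr 2 at 12999 CPM.

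The makeup of the collagen RNA shifted with the total. Type I (Col1a1 and Col1a2) made up 46.2%, 39.9% and 40.1% of collagen CPM in Ctl MSC libraries 1, 2 and 3, against 35.8%, 45.1% and 47.6% in MSC-TPr libraries 1, 2 and 3. Type VI, the beaded filament collagen, made up 12.3%, 7.33% and 6.93%, then 6.56%, 12.1% and 14.1%. Type IV (Col4a1 and Col4a2) ran the other way, at 5.47%, 13.5% and 13.7%, then 16.5%, 9.12% and 7.42%. Ctl MSC 1, MSC-TPr 2 and MSC-TPr 3 held larger shares of types I and VI and smaller shares of type IV than the other 3 libraries, whatever their label. Shares of 1 total are not independent of each other.

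Upstream sequences are shown for chains that stand for the patterns described next, and for the start sites that Col4a1 and Col4a2 share. RefSeq promoter windows for GRCm38.p6 (mm10) matched 35 of the 44 members, with 38 windows, and Col1a1, Col5a2 and Col12a1 were among the 9 without one. The 250 bases before each start were searched on both strands for the TATA box letters TATAAA, the CCAAT box and the GC box letters GGGCGG, each on its own, so that matches may share bases. Col3a1 is shown from chr1:45311288-45311537 on the plus strand, and Col1a2, of which only the stretch free of annotated exons is printed, from chr6:4505370-4505492 on the plus strand. Col5a3 comes from chr9:20815068-20815317 on the minus strand. Col18a1, likewise cut to the stretch free of annotated exons, comes from chr10:77166549-77166780 on the minus strand. A second Col18a1 window, chr10:77113656-77113955, is not printed and held 0 matches to each motif. Col11a2 comes from chr17:34038888-34039137 on the plus strand. The first 3 are fibrillar chains with higher and the last 2 are chains with lower values in MSC-TPr 2 and 3 than in Ctl MSC 2 and 3. All are written 5′ to 3′ on the gene's strand, and capitals mark motif matches on either strand.
Col3a1: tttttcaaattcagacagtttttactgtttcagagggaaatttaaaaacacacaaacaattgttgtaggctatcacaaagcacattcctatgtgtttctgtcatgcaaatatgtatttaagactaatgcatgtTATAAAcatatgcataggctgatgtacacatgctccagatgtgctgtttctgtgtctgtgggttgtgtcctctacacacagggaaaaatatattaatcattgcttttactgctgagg
Col1a2: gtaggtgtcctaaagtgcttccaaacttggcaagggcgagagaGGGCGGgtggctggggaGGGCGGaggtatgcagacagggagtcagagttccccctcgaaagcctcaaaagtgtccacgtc
Col5a3: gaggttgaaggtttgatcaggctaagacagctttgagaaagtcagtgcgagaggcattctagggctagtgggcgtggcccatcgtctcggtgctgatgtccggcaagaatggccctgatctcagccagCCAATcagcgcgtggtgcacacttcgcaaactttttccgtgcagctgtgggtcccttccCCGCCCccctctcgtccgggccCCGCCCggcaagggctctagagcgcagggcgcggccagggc
Col18a1: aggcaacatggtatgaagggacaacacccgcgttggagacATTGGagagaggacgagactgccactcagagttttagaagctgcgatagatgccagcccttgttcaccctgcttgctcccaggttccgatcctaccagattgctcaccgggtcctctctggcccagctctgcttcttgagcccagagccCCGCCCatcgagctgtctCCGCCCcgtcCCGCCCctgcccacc
Col11a2: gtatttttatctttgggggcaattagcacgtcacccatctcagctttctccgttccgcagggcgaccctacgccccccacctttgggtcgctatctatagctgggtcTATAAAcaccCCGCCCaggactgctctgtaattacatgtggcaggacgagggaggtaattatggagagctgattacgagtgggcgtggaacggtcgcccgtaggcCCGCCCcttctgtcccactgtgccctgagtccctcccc

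TATAAA was present in 5 of 38 collagen windows (13.2%) against 12.4% of all 32851 windows, and CCAAT in 13 of 38 (34.2%) against 33.8%. GGGCGG, the core of the GC box that Sp factors are known to bind, was present in 22 of 38 (57.9%) against 32.7% of all windows. Among windows of chains called higher without both libraries numbered 1, GGGCGG was present in 10 of 14, and among windows of chains called lower in 2 of 4. A match describes letters and is not a measured binding site.

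Col4a1 and Col4a2, whose products join into the common type IV network, lie head to head. Col4a1 spans chr8:11198423-11312826 on the minus strand and Col4a2 spans chr8:11312805-11449287 on the plus strand, so their annotated first exons share 22 bases. The plus strand of chr8:11312801-11312830 is printed with the shared bases in capitals.
Col4a1 and Col4a2 starts: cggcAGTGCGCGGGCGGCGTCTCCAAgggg

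Whether the authors' counting used strand is not given in the sources used here, and without it reads from these shared bases could not be told apart. The other type IV pairs are neighbours too. Col4a6 on the minus strand (chrX:141165403-141474076) adjoins Col4a5 on the plus strand (chrX:141475385-141689234), and Col4a4 on the minus strand (chr1:82448423-82586849) adjoins Col4a3 on the plus strand (chr1:82586921-82722059). Across the members, exons of 10 overlapped exons of a gene on the opposite strand and exons of 3 overlapped a gene on the same strand. The latter were Col3a1, Col7a1 and Col20a1, whose counts could depend on how the counting treated reads from the overlap.

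By level per length averaged over the libraries, type I led. Mean CPM per kb of exon over the 6 libraries was 378 for Col1a1, 211 for Col1a2 and 188 for Col5a2, which placed Col1a1 at rank 94 and Col1a2 at rank 181 of 21777 genes with a length. Col6a1 (88.4 CPM per kb), Col4a1 (79.1), Col4a2 (64.2), Col3a1 (61.9), Col6a3 (54.8) and Col5a1 (51.8) came next. Col5a2 stood above both type I chains in Ctl MSC 2, Ctl MSC 3 and MSC-TPr 1, at 134, 135 and 109 CPM per kb, and Col1a1 was the highest in the other 3 libraries. The order per kb rests on exon lengths, 6563 bases for Col1a1, 12426 for Col1a2 and 9591 for Col5a2. By CPM without lengths, Col1a2 exceeded Col5a2 in every library. Ranks among all genes by mean CPM were 16 for Col1a2, 21 for Col1a1 and 36 for Col5a2. The ranges of neighbours in the order per kb overlapped, and Col1a1 alone ranged from 54.0 to 1054 CPM per kb between libraries. Of the 44 chains, 26 passed the filter on low counts and were tested. The other 18 had between 0 and 21 counts in any library, and 9 of them never exceeded 3. Col6a5 and Col13a1 had 0 counts in all libraries.

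**Figure D2:**
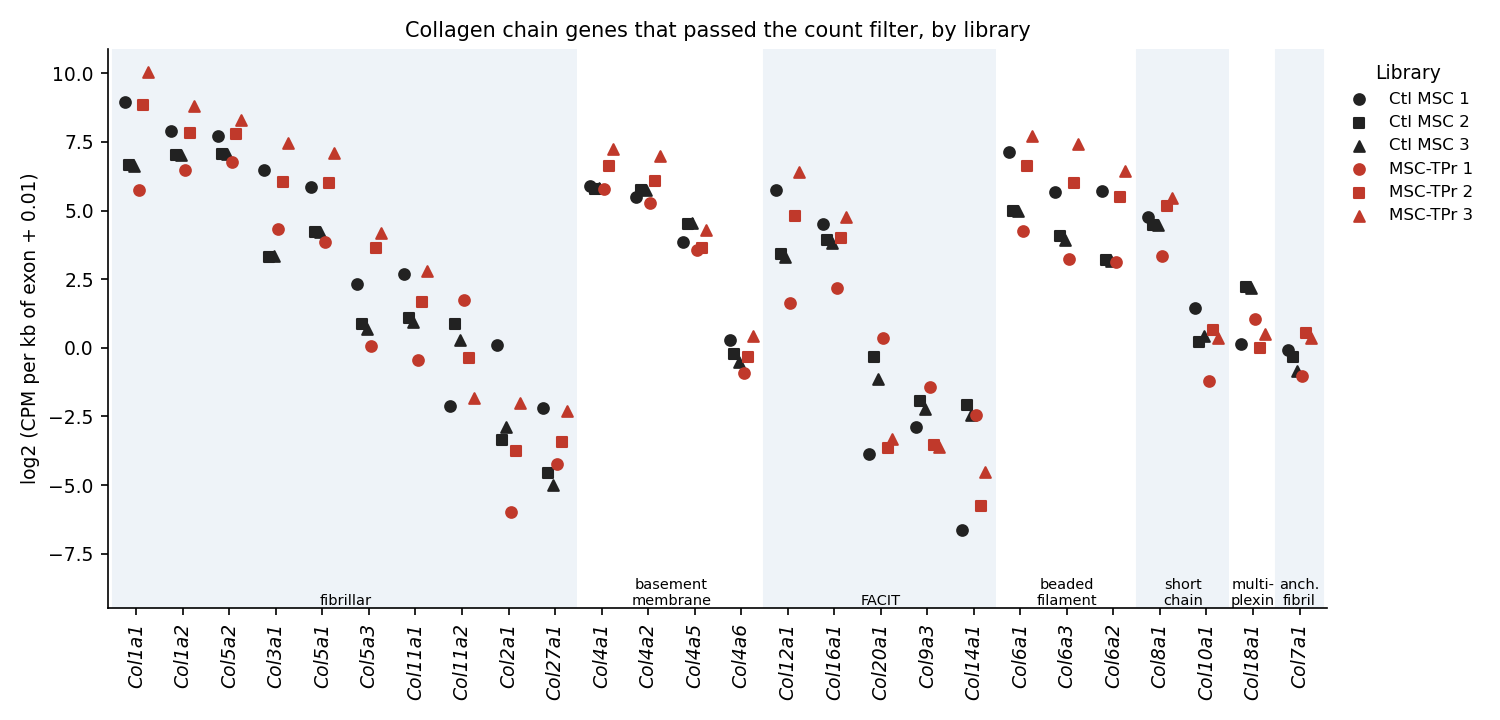
Level of the 26 tested collagen chains (x axis, grouped by assembly) in each library as log2 of CPM per kb of exon plus 0.01 (y axis), with 1 point per library, black for Ctl MSC and red for MSC-TPr. The red circle of MSC-TPr 1 is the lowest point for 19 of 26 chains (22.4% of all genes tested), and the red triangle of MSC-TPr 3 is the highest for 16 (12.7%).

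Over all 6 libraries no collagen chain was called. With edgeR's quasi-likelihood test, which called a gene where adjusted p was below 0.05 and the log2 fold change reached 0.5 in either direction, 0 of 26 chains were called higher and 0 lower in MSC-TPr, where 0.0251% and 0.401% of 11974 genes were called. None of the 26 had an unadjusted p under 0.05, which 6.81% of genes reached with higher and 8.23% with lower values, and DESeq2 also called 0 in each direction, where 1.89% of genes were called higher and 3.39% lower. The log2 fold change was above 0 for 18 chains and below 0 for 8, with a median of 0.42 against 0.01 for all genes. Values ran from -2.01 for Col2a1 to 1.91 for Col5a3, and adjusted p from 0.336 to 0.986. In 0 of 26 chains did the labels separate without overlap, where 10.6% of genes were higher and 12.1% lower in every MSC-TPr library. Spread within a label was wide: Ctl MSC 1 lay above both other Ctl MSC libraries for 19 of 26 chains (46.2% of all genes), and MSC-TPr 1 below both other MSC-TPr libraries for 21 (41.0%). MSC-TPr 3 exceeded MSC-TPr 2 for 22 of 26 (49.3% of all genes).

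Without both libraries numbered 1, 16 of the 26 chains were called higher and 5 lower in MSC-TPr, and 5 were not called. Of 12122 genes tested there, 20.6% were called higher and 19.4% lower. The median log2 fold change of the chains was 1.01, and that of all genes was -0.0016. An unadjusted p under 0.05 was reached by 21 chains, where 27.9% of genes reached it with higher and 26.6% with lower values. In 17 chains both MSC-TPr libraries lay above both Ctl MSC libraries and in 6 below, where 38.4% and 39.1% of all genes did so. These calls rest on 2 libraries for each label, and DESeq2 called 17 higher and 5 lower on the same libraries. The Ctl MSC pair differed little: the chi-square per gene between their counts was 4.76, against 50.0 for the MSC-TPr pair. The common dispersion of the edgeR fit was 0.0168, against 0.124 over 6 libraries. Whether the Ctl MSC pair was a technical repeat was not tested. Between the libraries left out the difference ran the other way for most chains: MSC-TPr 1 was below Ctl MSC 1 for 21 of 26, where 50.1% of all genes were.

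**Figure D3:**
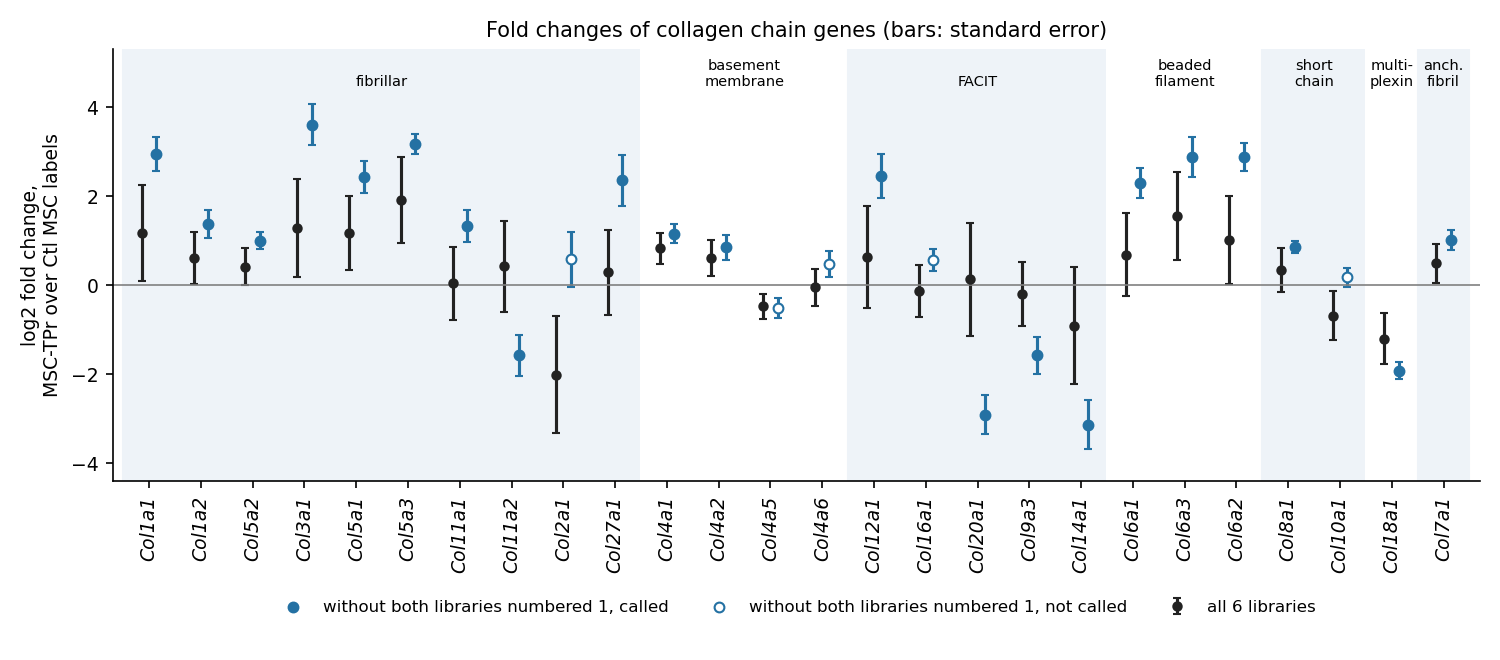
Log2 fold change of MSC-TPr over Ctl MSC (y axis) for the 26 tested chains (x axis), black over all 6 libraries and blue without both libraries numbered 1, filled where called, with bars of 1 standard error. No black point was called, while blue points were called higher for 16 chains and lower for 5.

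The fibrillar chains gave the largest group, with 10 of 11 tested. Col1a1, the main chain of type I collagen, stood at 3250.2, 660.0 and 639 CPM in Ctl MSC libraries 1, 2 and 3, against 354, 3052 and 6916 CPM in MSC-TPr libraries 1, 2 and 3. Ctl MSC 1 was close to MSC-TPr 2, and MSC-TPr 1 was the lowest of all, so the labels overlapped. Over 6 libraries its log2 fold change was 1.18 (SE 1.08, edgeR adjusted p = 0.656). Without both libraries numbered 1, Col1a1 averaged 649.7 ± 14.7 CPM under the Ctl MSC label and 4984 ± 2732 CPM under MSC-TPr (SD, n = 2 each). The log2 fold change was then 2.94 (SE 0.38, edgeR adjusted p = 0.00234). Col1a2, its partner chain, had 2992, 1615 and 1629.9 CPM in Ctl MSC libraries, against 1101, 2814 and 5602 CPM in MSC-TPr. The same libraries were high and low, over a narrower range. The log2 fold change of Col1a2 was 0.61 (SE 0.58, edgeR adjusted p = 0.673) over 6 libraries and 1.38 (SE 0.32, edgeR adjusted p = 0.0156) without those numbered 1.

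Col3a1, which mixes with type I in extensible tissues, had 863, 97.2 and 99.1 CPM in Ctl MSC libraries 1, 2 and 3, against 197, 649 and 1740.1 CPM in MSC-TPr libraries 1, 2 and 3. Unlike for Col1a1, the lowest values here were those of Ctl MSC 2 and 3, and MSC-TPr 1 lay above them. Its log2 fold change was 1.29 (SE 1.10, edgeR adjusted p = 0.631) over 6 libraries. Without the libraries numbered 1 it was 3.61 (SE 0.46, edgeR adjusted p = 0.00221), the highest among the chains, with means 12.2-fold apart.

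Type V collagen sets fibril diameter from within type I fibrils. Col5a1 had 493, 159 and 157 CPM in Ctl MSC libraries, against 123, 538 and 1169 CPM in MSC-TPr. Col5a2 had 2040.0, 1284 and 1294 CPM, then 1042, 2124 and 3007 CPM. Both ranked Ctl MSC 1 above MSC-TPr 1 and MSC-TPr 3 above all, and neither separated the labels. Without those numbered 1, the log2 fold change was 2.43 (SE 0.36) for Col5a1 and 0.996 (SE 0.19) for Col5a2, with edgeR adjusted p = 0.00338 and 0.00854. Col5a3, the least abundant type V chain, had 34.4, 12.3 and 10.9 CPM, then 7.09, 84.5 and 125 CPM. MSC-TPr 2 and 3 exceeded Ctl MSC 1 for this chain, and MSC-TPr 1 was below every Ctl MSC library. Its log2 fold change over 6 libraries, 1.91 (SE 0.97, edgeR adjusted p = 0.411), was the highest of the 26.

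Type XI, II and XXVII chains, known from cartilage fibrils, were lower in level. Col11a1 had 82.3, 26.7 and 24.6 CPM in Ctl MSC libraries 1, 2 and 3, against 9.19, 39.9 and 88.6 CPM in MSC-TPr libraries 1, 2 and 3, and was called higher without those numbered 1 (log2 fold change 1.33, edgeR adjusted p = 0.026). Col27a1, with 2.72, 0.427 and 0.276 CPM, then 0.554, 1.07 and 2.51 CPM, was called higher too, at 2.35. Col11a2 was the fibrillar chain that went the other way, with 1.51, 12.4 and 8.33 CPM in Ctl MSC libraries 1, 2 and 3, against 22.9, 5.26 and 1.86 CPM in MSC-TPr libraries 1, 2 and 3. Its highest value was that of MSC-TPr 1, where Col11a1 was lowest, and its lowest was that of Ctl MSC 1. Col11a2 had a log2 fold change of 0.43 over 6 libraries and of -1.57 (SE 0.46, edgeR adjusted p = 0.0355) without those numbered 1. Col2a1, the main collagen of cartilage, had 9.91 CPM in Ctl MSC 1 and at most 2.23 CPM elsewhere, and was not called. The untested fibrillar chain, Col24a1, had 19, 5 and 10 counts in Ctl MSC libraries, against 3, 4 and 4 in MSC-TPr, all 3 MSC-TPr libraries lying below all 3 Ctl MSC libraries. The nearest were 5 counts against 4, and 12.1% of all genes tested were lower without overlap.

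Among the basement membrane chains, Col4a1 and Col4a2 showed the narrowest spread within Ctl MSC of the 10 most abundant chains. Col4a1 had 440.4, 416 and 420.3 CPM in Ctl MSC libraries 1, 2 and 3, against 410.4, 735 and 1121 CPM in MSC-TPr libraries 1, 2 and 3. MSC-TPr 1 lay just below the Ctl MSC values, and MSC-TPr 2 and 3 lay above them. Over 6 libraries Col4a1 had the lowest adjusted p of the 26 chains, 0.336 by edgeR, with a log2 fold change of 0.83 (SE 0.35). Col4a2 had 298, 356 and 356 CPM, then 258, 450.3 and 829 CPM. For Col4a2 Ctl MSC 1 was the lowest Ctl MSC library, the reverse of its place for Col1a1. Without those numbered 1, log2 fold changes were 1.15 (SE 0.21) for Col4a1 and 0.85 (SE 0.28) for Col4a2, with edgeR adjusted p = 0.00728 and 0.0487, the latter just inside the threshold. Col4a5, a chain of a separate type IV network, had 98.2, 151 and 158 CPM, then 78.8, 82.6 and 133 CPM, with a log2 fold change of -0.47 over 6 libraries and of -0.52 (edgeR adjusted p = 0.105) without those numbered 1. Col4a6, between 4.15 and 10.8 CPM, was not called. Col4a3 and Col4a4, the partners of Col4a5 in the kidney filter, had at most 5 counts.

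Type VI chains varied more widely between libraries than Col4a1 and Col4a2. Col6a1 had 615, 139 and 137 CPM in Ctl MSC libraries 1, 2 and 3, against 83.5, 435 and 914 CPM in MSC-TPr libraries 1, 2 and 3. Col6a3, the chain with the long globular domains, had 617, 203 and 181 CPM, then 111, 770.3 and 2049.5 CPM. Col6a2 had 434, 75.8 and 75.1 CPM, then 71.9, 374 and 731 CPM. For these 3 chains MSC-TPr 1 was the lowest library and MSC-TPr 3 the highest, and the labels overlapped. Log2 fold changes over 6 libraries were 0.69 (SE 0.93) for Col6a1, 1.01 (SE 0.99) for Col6a2 and 1.55 (SE 0.99) for Col6a3, with edgeR adjusted p = 0.782, 0.683 and 0.512. Without those numbered 1, all 3 were called higher, at 2.29, 2.87 and 2.88. Col6a4, Col6a5 and Col6a6 had at most 7 counts and were not tested.

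The FACIT chains were split. Col12a1, which binds the surface of type I fibrils, had 826, 163 and 149 CPM in Ctl MSC libraries 1, 2 and 3, against 47.3, 422 and 1283 CPM in MSC-TPr libraries 1, 2 and 3. Its range between MSC-TPr 1 and MSC-TPr 3 was wider than that between the label means. Its log2 fold change was 0.62 (SE 1.15, edgeR adjusted p = 0.840) over 6 libraries and 2.45 (SE 0.49, edgeR adjusted p = 0.00990) without those numbered 1. Col16a1, at 30.4 to 184 CPM, was not called in either set (log2 fold changes -0.13 and 0.56). Col14a1, Col9a3 and Col20a1 were at most 6.48 CPM and were called lower without those numbered 1, at -3.13, -1.58 and -2.91. Col20a1 had 0.302, 4.06 and 2.26 CPM in Ctl MSC libraries, against 6.48, 0.355 and 0.464 CPM in MSC-TPr. Col14a1 had 0, 1.60 and 1.21 CPM, then 1.22, 0.0592 and 0.232 CPM, and Col9a3 had 0.483, 0.961 and 0.772 CPM, then 1.38, 0.296 and 0.278 CPM. Like Col11a2, these 3 were low in Ctl MSC 1, MSC-TPr 2 and MSC-TPr 3, where the abundant chains were high. Col9a1, Col9a2, Col19a1 and Col22a1 had at most 5 counts.

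Of the remaining classes, the short chain network had 2 tested chains, the multiplexins and the anchoring fibril class 1 each, and the transmembrane class 0. Col8a1, a short chain collagen of endothelial and vascular matrix, had 214, 172 and 174 CPM in Ctl MSC libraries 1, 2 and 3, against 79.2, 279 and 347 CPM in MSC-TPr libraries 1, 2 and 3. MSC-TPr 1 lay below every Ctl MSC library and MSC-TPr 2 and 3 above them. Its log2 fold change was 0.33 (SE 0.49, edgeR adjusted p = 0.804), or 0.86 (SE 0.14, edgeR adjusted p = 0.00519) without those numbered 1. Col10a1, the marker of hypertrophic chondrocytes, was between 1.33 and 8.52 CPM and was not called. Col7a1, the anchoring fibril chain, had 9.55, 8.12 and 5.57 CPM, then 4.98, 14.7 and 13.0 CPM, and was called higher without those numbered 1 at 1.02 (SE 0.22, edgeR adjusted p = 0.0130).

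Col18a1, the multiplexin from which endostatin is released, was the chain of over 5 CPM in every library with the lowest log2 fold change in both sets. It had 7.61, 32.1 and 31.4 CPM in Ctl MSC libraries 1, 2 and 3, against 14.3, 6.86 and 9.83 CPM in MSC-TPr libraries 1, 2 and 3. All MSC-TPr libraries were below Ctl MSC 2 and 3, while Ctl MSC 1 lay among the MSC-TPr values. The log2 fold change was -1.20 (SE 0.57, edgeR adjusted p = 0.383) over 6 libraries and -1.92 (SE 0.19, edgeR adjusted p = 0.000972) without those numbered 1. Col8a2, untested, had 21, 7 and 8 counts in Ctl MSC libraries, against 1, 4 and 3 in MSC-TPr, and was lower in every MSC-TPr library than in every Ctl MSC library. Of all genes tested 12.1% were so, and the share among untested genes was not taken. Transmembrane chains were at the floor, the highest being Col17a1 at 0.181, 0 and 0.110 CPM in Ctl MSC libraries, against 0, 0.118 and 0.232 CPM in MSC-TPr, and a count of 0 allows up to 0.160 CPM in Ctl MSC 2 by counting error alone.

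Chains that assemble with each other did not keep a fixed ratio. The log2 ratio of Col1a1 to Col1a2, per kb of exon, was 1.04, -0.37 and -0.43 in Ctl MSC libraries 1, 2 and 3, against -0.71, 1.04 and 1.22 in MSC-TPr libraries 1, 2 and 3. Type I procollagen is known as a trimer with more of the Col1a1 than of the Col1a2 product, and the RNA ratio was above 0 in Ctl MSC 1, MSC-TPr 2 and MSC-TPr 3 and below 0 in the other 3 libraries. How far the ratio lay from 0 depends on the exon lengths used, 6563 bases for Col1a1 and 12426 for Col1a2. It is therefore not a measure of trimer makeup. By CPM without lengths, Col1a1 was likewise above Col1a2 in Ctl MSC 1, MSC-TPr 2 and MSC-TPr 3 and below it in the others. The difference of label means was 0.44, against SDs of 0.83 and 1.07, and became 1.53 without those numbered 1. The ratio of Col5a1 to Col5a2 split the libraries the same way, at -1.87, -2.83 and -2.86, then -2.90, -1.81 and -1.19. Col4a1 to Col4a2 stayed within 0.05 to 0.53, the narrowest range of the 4 pairs.

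For Col6a1 to Col6a2 the labels did not overlap: 1.43, 1.80 and 1.79 in Ctl MSC libraries 1, 2 and 3, against 1.14, 1.15 and 1.25 in MSC-TPr libraries 1, 2 and 3. Every MSC-TPr library, MSC-TPr 1 included, had less Col6a1 RNA for its Col6a2 RNA than every Ctl MSC library. Means were 1.67 ± 0.21 and 1.18 ± 0.06 (SD, n = 3 each), a difference of -0.49 on the log2 scale. No test was run on ratios, and among 4 pairs 1 separated the labels. Of single genes 10.6% were higher and 12.1% lower in every MSC-TPr library. The share among other pairs of genes was not taken, so this separation cannot be called particular to the pair.

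**Figure D4:**
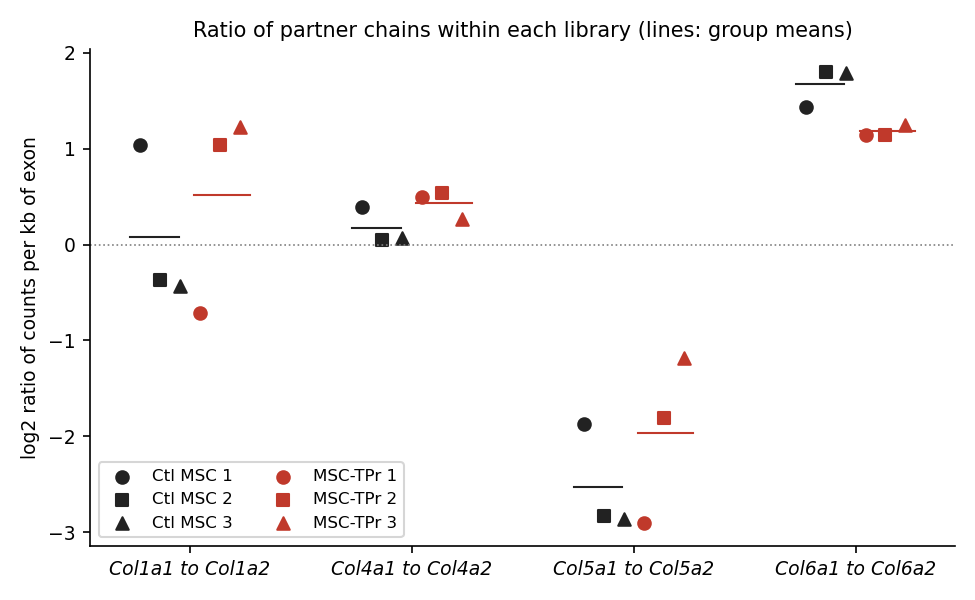
Log2 ratio of partner chains, per kb of exon (y axis), in each library for 4 pairs (x axis), with 1 point per library, black for Ctl MSC and red for MSC-TPr, and lines at label means. Col6a1 to Col6a2 is the pair whose black points, 1.43 to 1.80, all lie above the red ones, 1.14 to 1.25.

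The enzymes and receptors that serve collagen were read from a list of 55 genes, of which 45 were tested. Over 6 libraries 0 were called in either direction by edgeR, 6 had an unadjusted p under 0.05, and DESeq2 called 0 higher and 3 lower (P3h2, Ctsk and Tll1). Among all genes 6.81% reached that p with higher and 8.23% with lower values, and DESeq2 called 1.89% higher and 3.39% lower. Labels did not overlap for 1 gene that was higher and 6 that were lower in MSC-TPr, out of 45, where 10.6% of all genes were higher and 12.1% lower without overlap. Apart from the 3 called lower by DESeq2, these counts are near or below what all genes gave. The genes named from any of them are given for their values and say nothing about the list. Without those numbered 1, 19 were called higher and 7 lower, where 20.6% and 19.4% of all genes were, and the median log2 fold change was 0.26 against 1.01 for the chains. Cross-linking genes and propeptide removal genes had medians of 1.55 and 1.12, with 3 of 5 and 5 of 6 called higher. Receptors and degradation genes had medians of -0.42 and -0.52, with 1 of 7 and 0 of 4 called higher and 2 lower in each.

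**Figure D5:**
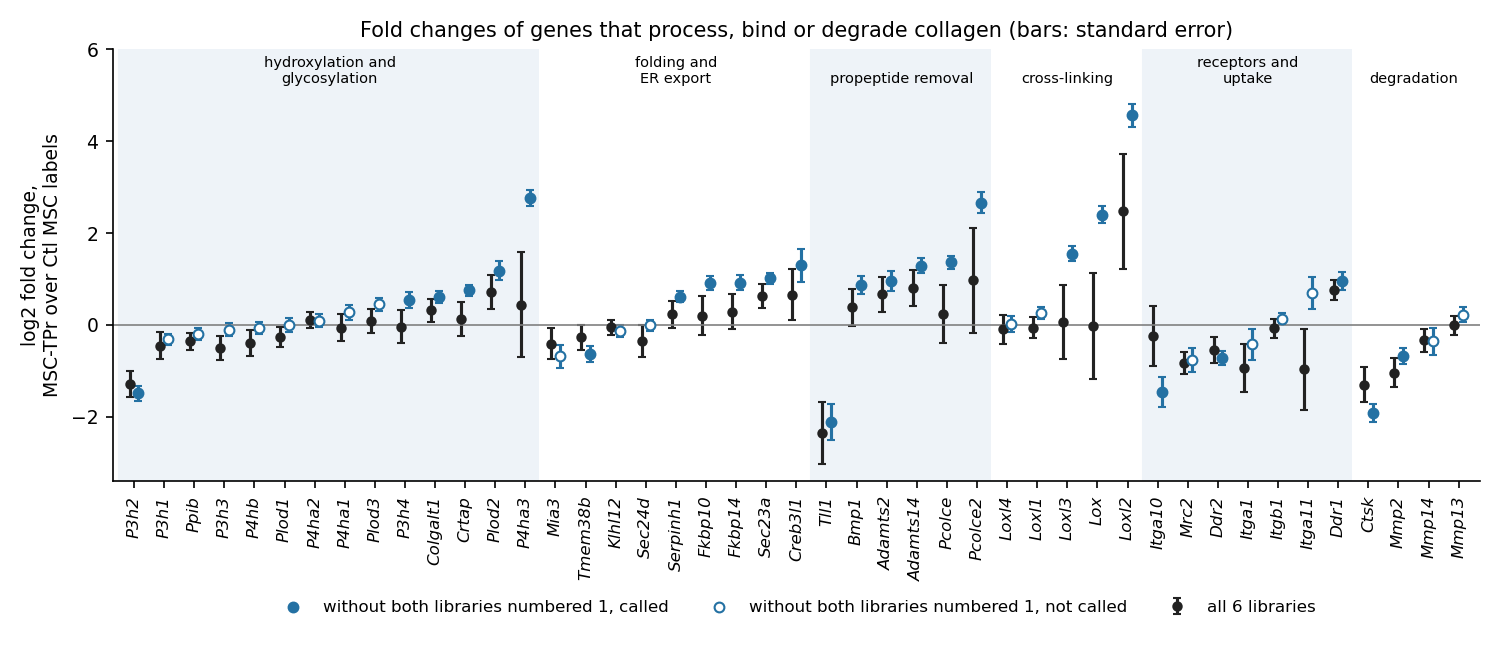
Log2 fold change of MSC-TPr over Ctl MSC (y axis) for 45 tested genes that process, bind or degrade collagen (x axis, grouped by role), black over all 6 libraries and blue without both libraries numbered 1, filled where called, with bars of 1 standard error. Loxl2 reaches 4.56 in blue, and P3h2, Ctsk and Mmp2 lie below 0 in both colours.

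The 7 genes whose labels did not overlap were Ddr1, P3h2, Ctsk, Mmp2, Mrc2, Ppib and Tll1. Tll1, at a log2 fold change of -2.35, was a gene of low counts, with a mean log2 CPM under 1. Its values by library are therefore not given. Ddr1, a receptor tyrosine kinase for collagen, had 38.1, 33.2 and 32.8 CPM in Ctl MSC libraries 1, 2 and 3, against 49.0, 51.2 and 75.7 CPM in MSC-TPr libraries 1, 2 and 3. It was the gene of the list that was higher in every MSC-TPr library, at a log2 change of 0.76 (SE 0.21, edgeR adjusted p = 0.195). P3h2, which hydroxylates proline in the 3 position, had 17.9, 32.5 and 32.4 CPM, then 10.9, 10.2 and 12.8 CPM, a log2 fold change of -1.29 (SE 0.28). By edgeR its adjusted p was 0.127, and by DESeq2 0.00347. Each MSC-TPr library was below each Ctl MSC library, with a narrow spread within MSC-TPr.

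Ctsk, the collagen-cutting protease of lysosomes, had 60.9, 116 and 126 CPM in Ctl MSC libraries, against 58.6, 37.9 and 26.4 CPM in MSC-TPr, and Ctl MSC 1 lay barely above MSC-TPr 1. Mmp2, a gelatinase, had 139, 114 and 119.7 CPM, then 36.2, 60.2 and 84.7 CPM. Mrc2, which takes up collagen fragments, had 219, 238 and 233 CPM, then 112, 99.7 and 178 CPM. These 3 did not overlap between labels, at log2 fold changes of -1.30, -1.04 and -0.82 and edgeR adjusted p = 0.212, 0.213 and 0.208. Ppib, a prolyl isomerase of the hydroxylation complex, was lower by a narrow margin, 172 against 173 CPM between the nearest libraries, at a log2 fold change of -0.36 (edgeR adjusted p = 0.434).

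Among the 5 cross-linking enzymes, Lox, Loxl2 and Loxl3 were called higher without those numbered 1, and Loxl1 and Loxl4 were not called, at log2 fold changes of 0.26 and 0.019. Lox, which oxidises lysines to start cross-links, had 3059, 334 and 331 CPM in Ctl MSC libraries 1, 2 and 3, against 153, 1476 and 2015 CPM in MSC-TPr libraries 1, 2 and 3. Its highest library was Ctl MSC 1 and its lowest MSC-TPr 1, with a log2 fold change of -0.03 (edgeR adjusted p = 0.993) over 6 libraries and of 2.40 (edgeR adjusted p = 0.000408) without those numbered 1. Loxl2 had 58.7, 8.97 and 8.55 CPM, then 8.75, 162 and 252 CPM, and reached 4.56 (SE 0.25, edgeR adjusted p = 0.000149) without those numbered 1. Serpinh1, the collagen chaperone of the endoplasmic reticulum, stayed between 1032 and 2007 CPM and was called higher at 0.62 there.

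Levels of other cell types' markers were set beside these results. Smooth muscle and myofibroblast markers (5 genes, led by Acta2) summed to 682, 518 and 568 CPM in Ctl MSC libraries 1, 2 and 3, against 128, 1189 and 1241 CPM in MSC-TPr libraries 1, 2 and 3, and their part in the collagen values was not tested. Osteoblast markers summed to between 476 and 1762 CPM, almost all of it Spp1, with Ibsp at 0 counts and Bglap at no more than 1. Of 3 tested osteoblast markers 0 were called over 6 libraries, at log2 fold changes from 0.28 to 2.23. Of these 3, 1 was higher in every MSC-TPr library than in every Ctl MSC library, where 10.6% of all genes were. When both libraries numbered 1 were left out, calls were 2 higher and 0 lower, where 20.6% and 19.4% of all genes were called. Chondrocyte markers summed to between 32.7 and 60.7 CPM, almost all of it Sox9, with Matn1 at 0 counts and Acan at no more than 3. Of 2 tested chondrocyte markers 0 were called over 6 libraries, at log2 fold changes from -0.039 to 2.52. Without both libraries numbered 1 the changes ran from 0.34 to 4.13, and 1 was called higher, where 20.6% of all genes were. The part of osteoblast and chondrocyte markers in the collagen values was not tested. Endothelial markers summed to between 1.27 and 24.7 CPM, the highest being MSC-TPr 1, where Vwf had 21.4 CPM.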

How the data were processed

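Polyadenylated RNA of 3 Ctl MSC and 3 MSC-TPr libraries was sequenced with a stranded kit. The authors mapped the reads on mm10, ran Htseq-count per gene and deposited the raw counts of 23420 genes. Per the labels, CASAVA 1.8.2, Trimmomatic 0.35 and TopHat2 2.1.0 were used. The annotation and the strand setting of the counting are not given in the sources used here. Between 79.2% and 86.2% of counted reads fell on genes, and the other rows were left out of library sizes.

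The main test was that of edgeR 4.0.16 under R 4.3.3 (filterByExpr, TMM, quasi-likelihood test with group as the term, Benjamini-Hochberg over all 11974 genes tested). A call needed adjusted p below 0.05 and 0.5 or more in log2 fold change, in either direction. The standard error is the fold change divided by the square root of F. DESeq2 1.42.0, other normalizations, filters and thresholds, a replicate block and the omission of libraries were alternatives. On simulated counts of 16807 genes with 200 changed 4-fold, edgeR recovered 198 at a dispersion of 0.02 and 182 at 0.12 over 6 libraries, and 199 and 118 without both libraries numbered 1, with 4 to 6 false calls. The simulated counts had the same dispersion for all genes and no split of libraries across labels. They cannot tell what share of changes the fits of the real libraries would find. Exon lengths and coordinates came from GENCODE M21 (mm10), and promoter sequences from RefSeq for GRCm38.p6.

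The members, the lists and the omission of both libraries numbered 1 were chosen with earlier results of these data known. By rule, values in every library were given for chains called over 6 libraries, the 10 with the highest mean CPM, tested chains whose labels did not overlap and the highest of each class, and for pathway genes called over 6 libraries or, up to 5 per direction, not overlapping with a mean log2 CPM of at least 1. Other genes, among them the chains called without both libraries numbered 1, were named after their values were seen. For 6 pathway genes the table uses older symbols (Lepre1 and Leprel1, 2 and 4 for P3h1 to P3h4, Glt25d1 and 2 for Colgalt1 and 2). 1 haematopoietic marker gene was left out of its list and is not reported here.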

Additional observations from a re-analysis of the deposited data

How the results depend on the processing

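Under edgeR with RLE or upper quartile normalization, no filter, at least 10 counts in every library, no fold threshold, a threshold of 1, a replicate block or any 1 library left out, 0 chains were called higher and 0 lower, and DESeq2 over 6 libraries gave the same counts. Leaving out both libraries numbered 1 gave 16 chains higher and 5 lower. With RLE or upper quartile normalization these stayed 16 and 5, and with DESeq2 they were 17 and 5, alternatives chosen after seeing the data. Pathway genes called higher were then 19 under each of these 4, and those called lower were 7, 7 with RLE, 8 with upper quartile and 9 with DESeq2. Over 6 libraries, pathway genes called lower numbered 3 with DESeq2 and 0 to 1 when 1 library was left out, the 1 being P3h2 without Ctl MSC 1. Chains higher without overlap numbered 0 to 8 when 1 library was left out (8 without MSC-TPr 1) and 17 without both numbered 1. Chains lower without overlap numbered 0 to 2 when 1 library was left out, 2 with no filter (Col24a1 and Col8a2) and 6 without both numbered 1. The share of all genes without overlap was 10.6% higher and 12.1% lower over 6 libraries. It was 38.4% and 39.1% without both numbered 1. That share was not taken with 1 library left out or with no filter, so the counts there say nothing particular to the chains. The Col1a1 to Col1a2 difference became 1.53 without both, and the Col6a1 to Col6a2 difference stayed between -0.62 and -0.43 when 1 library was left out.

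MSC-TPr 3 decided several directions: without it the log2 fold change was -0.078 for Col1a2, -0.68 for Col12a1, -0.19 for Col6a1 and -0.052 for Col8a1, the lowest values with 1 library left out, where the highest were 1.02, 1.90, 1.79 and 0.75. The median of the chains was -0.0018 without MSC-TPr 3 and 0.74 without MSC-TPr 1. Deviations of same-numbered libraries from their label means were negatively correlated (-0.76, -0.59 and -0.60). With both libraries numbered 1 standing with the other label, these correlations cannot tell whether the numbers pair libraries. With the replicate block, 0 chains and 0 pathway genes were called, and the common dispersion was 0.202 against 0.124. The cause of the differences between settings was not tested. With 2 or 3 libraries a label, and with both libraries numbered 1 standing with the other label, neither an effect of the construct nor its absence can be read from these chains. Chains under 3 counts were below what this depth can measure.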
